A study of Homo sapiens with 6 samples.

Results

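Synaptic vesicle, neurosecretory and growth-cone genes were followed in SH-SY5Y, a human neuroblastoma line of sympathoadrenal origin, before and during exposure to MPP+. They are 10 genes chosen by symbol: the synaptic vesicle genes SYP and SYT1, the SNARE genes SNAP25, STX1A and VAMP2, the granin genes CHGA, CHGB and SCG2, and the growth-cone genes STMN2 and GAP43. All 10 matched an identifier in the count tables, which list 67051. Of these, 9 of 10 had enough counts to be tested, and SNAP25 was listed at 0 in every library.

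Nascent transcription was measured by PRO-seq, in which polymerases engaged on DNA in isolated nuclei extend their RNA with biotin-labelled nucleotides, so that counts follow polymerases in transit and not the pool of finished mRNA. There were 3 groups with 2 libraries each: untreated SH-SY5Y cells, SH-SY5Y cells given 0.1 mM MPP+ for 0.5 h, and SH-SY5Y cells given 0.1 mM MPP+ for 24 h. MPP+ is a neurotoxin taken up through monoamine transporters that inhibits complex I of the respiratory chain. All groups are 1 cell line in culture. Whether the replicates were grown as separate cultures is not told by the labels. Every p-value here therefore sets a group difference only against variation among these libraries, and that variation may be technical.

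Neurons and neuroendocrine cells release transmitters and peptides from vesicles that fuse with the plasma membrane when calcium enters. Fusion is driven by SNARE proteins, of which VAMP2 sits on the vesicle and syntaxin 1A and SNAP-25 on the plasma membrane, while synaptotagmin 1 senses calcium. Dense-core granules store peptides and catecholamines packed with granins. Growing neurites carry GAP-43, a membrane-bound growth-cone protein, and stathmin-2, which regulates microtubules, and both are widely used as markers of neuronal differentiation. Adrenergic neuroblastoma lines are known to carry dense-core granules.

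Assigned counts per library ran between 5983066 and 11707612. A count of 0 allows up to 3 counts in a library, between 2.56e-05% and 5.01e-05% of its total. These floors cover counting error only. Intervals of fold changes come from the edgeR fit by group and also include variation between the libraries of a group. Levels are given as TMM-scaled CPM, assigned counts scaled to a common library size. Fold changes are therefore relative to the other genes, and a shift shared by most genes would not be seen. Of 10 sympathoadrenal neuroblast markers 9 were detected, and MAB21L1, like the glial marker SOX10, has no base outside other genes, so its 0 gives no level. The detected ones had a summed level of 2425 to 3380 CPM, among them PHOX2A at 497 to 631 CPM, DBH at 198 to 252 CPM and TH, the first enzyme of catecholamine synthesis, at only 0.235 to 1.62 CPM. The 5 Schwann cell and glial markers reported here summed to 13.1 to 24.2 CPM, to which SOX10 could add nothing. The 4 epithelial markers summed to 158 to 201 CPM, of which EPCAM made up 126 to 175 CPM, and the 4 blood markers to 2.75 to 4.4 CPM. The 7 mesenchymal markers summed to 1240 to 1885 CPM, of which TWIST1 alone made up 1150 to 1760 CPM.

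How the counts were shared out among overlapping genes bears on 6 of these genes and comes before the levels. By the positions of GENCODE 29, 18963 genes of the tables had no base of their span outside the spans of other genes, and 99.4% of them were at 0 in all 6 libraries. Genes with at least 1000 bases of their own were at 0 in 5.14% of 28758 cases. Among genes wholly covered by genes of the other strand only, whose exons touched no exon of another gene, 99.7% of 6966 were at 0. Rows of wholly covered genes thus held almost no reads, also where the covering genes lay on the other strand and shared no exon bases. Whether covering genes kept reads from shared stretches, and how partly covered genes were counted, was not tested. GENCODE 29 is not the release behind the tables, since 38241 of 67051 identifiers carry the same version in it, so the covered stretches below are approximate.

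SNAP25 (ENSG00000132639.13, hg38 chr20:10218830-10307418, plus strand) lies wholly inside the span of the antisense gene SNAP25-AS1 (chr20:10021978-10368776). Its own uncovered length is 0 of 88589 bp, and its count was 0 in all 6 libraries. These zeros therefore give no level for SNAP25, a SNARE protein of the plasma membrane, in any condition. The SNAP25-AS1 row covers flanks on both sides of SNAP25, and how its reads were assigned by strand is not given. It held 882 and 1212 counts in untreated cells, 1780 and 1063 counts at 0.5 h, and 1352 and 913 counts at 24 h. On the CPM scale this was 127.3 and 142.1 in untreated cells, 156.8 and 122.2 at 0.5 h, and 160.2 and 148.2 at 24 h. Its log2 fold change was 0.05 ± 0.13 (SE) at 0.5 h against untreated cells and 0.19 ± 0.13 at 24 h, with adjusted p = 1 and 0.762 in edgeR's quasi-likelihood test.

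VAMP2 (ENSG00000220205.9, chr17:8159149-8163546, minus strand) keeps 571 of its 4398 bp, because ENSG00000263620, a gene on the same strand, covers the rest. The uncovered bases, 8162976 to 8163546, lie upstream of both RefSeq transcript starts, at 8162948 and 8162876. If reads from shared stretches were left out, the VAMP2 count comes from upstream of the RefSeq transcripts, inside the GENCODE 29 span. STX1A (ENSG00000106089.12, chr7:73699206-73719672, minus strand) shares its last 5956 bp with BUD23 on the other strand and keeps 70.5% of its span. SYP (ENSG00000102003.11, chrX:49187804-49200259, minus strand) shares its first 1294 bp with SYP-AS1 and keeps 89.6%. SYT1 (ENSG00000067715.14, chr12:78863993-79452008, plus strand) keeps 66.6% of a span of 588016 bp. GAP43 (ENSG00000172020.13, chr3:115623324-115721490, plus strand) keeps 97.2%.

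**Figure D1:**
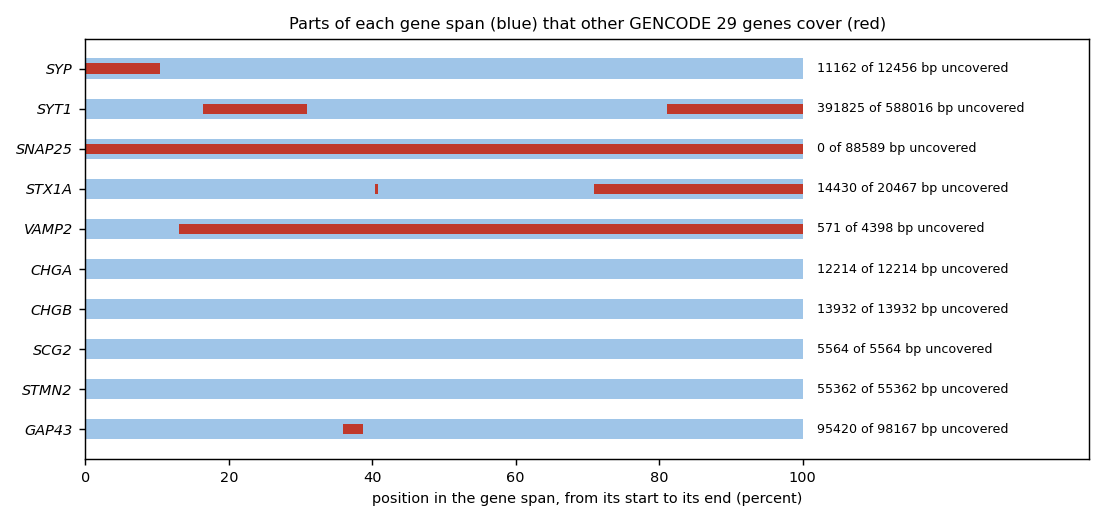
Each blue bar is the GENCODE 29 span of 1 gene from its start to its end in percent of its length, and red marks the part covered by another gene. SNAP25 is covered throughout, VAMP2 keeps 571 of 4398 bp at its start, and CHGA, CHGB, SCG2 and STMN2 are not covered at all.

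The remaining members stand clear of other genes: CHGA (ENSG00000100604.13, chr14:92923080-92935293, plus strand), CHGB (ENSG00000089199.10, chr20:5911430-5925361, plus strand), SCG2 (ENSG00000171951.5, chr2:223596940-223602503, minus strand) and STMN2 (ENSG00000104435.14, chr8:79610814-79666175, plus strand).

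Promoter windows were given by RefSeq (GRCh38.p14) for 6 of the 10 genes: SYP, SYT1, STX1A, VAMP2, CHGA and GAP43. No window is given here for SNAP25, CHGB, SCG2 or STMN2. The 250 bases before the RefSeq start were searched on both strands for 3 motifs, chosen with the sequences in view and not overlapping one another. They were the cAMP response element (CRE), with the letters TGACGTCA, a promoter box for the TATA-binding protein, with the letters TATATAA, and the Sp1-type GC box, with the letters GGGCGG. Over 35116 promoter windows of the table, 1.65% hold the CRE letters, 2.42% the TATA letters and 42.6% the GC box. The windows of CHGA (chr14:92922900-92923149, plus strand), STX1A (chr7:73719670-73719919, minus strand), VAMP2 (chr17:8162976-8163198, minus strand) and GAP43 (chr3:115623260-115623509, plus strand) are printed as examples. Motif letters of either strand are in capitals. The VAMP2 sequence is the part of its promoter window that falls in the uncovered 571 bp, so it may be part of what the VAMP2 count measures.

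CHGA: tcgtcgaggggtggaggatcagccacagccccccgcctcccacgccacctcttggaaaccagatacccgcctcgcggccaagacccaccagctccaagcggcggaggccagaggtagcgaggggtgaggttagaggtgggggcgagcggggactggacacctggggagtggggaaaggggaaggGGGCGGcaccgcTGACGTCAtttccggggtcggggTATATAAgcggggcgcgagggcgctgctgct
STX1A: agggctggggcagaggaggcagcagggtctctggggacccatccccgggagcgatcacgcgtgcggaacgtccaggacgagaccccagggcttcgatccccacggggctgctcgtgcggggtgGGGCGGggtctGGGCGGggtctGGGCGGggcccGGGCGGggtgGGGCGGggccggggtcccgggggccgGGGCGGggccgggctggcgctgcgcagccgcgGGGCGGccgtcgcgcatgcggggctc
VAMP2: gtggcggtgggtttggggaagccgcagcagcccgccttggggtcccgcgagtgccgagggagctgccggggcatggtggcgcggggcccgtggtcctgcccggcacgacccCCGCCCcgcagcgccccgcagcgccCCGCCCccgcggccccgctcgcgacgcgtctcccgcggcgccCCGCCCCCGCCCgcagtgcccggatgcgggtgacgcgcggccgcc
GAP43: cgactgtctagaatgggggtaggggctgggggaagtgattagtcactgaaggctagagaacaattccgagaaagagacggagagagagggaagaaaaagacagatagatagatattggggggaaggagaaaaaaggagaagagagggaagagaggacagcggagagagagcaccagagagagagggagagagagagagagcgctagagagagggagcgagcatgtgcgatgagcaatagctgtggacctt

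Among the 6 windows, CHGA alone held the CRE, which begins 54 bases before its RefSeq start, and it alone held TATATAA, which begins 31 bases before. STX1A held 7 GC boxes in a window of 80.8% G and C, and VAMP2 and SYP held 4 each. SYT1 held 1 GC box, at 62% G and C. GAP43 held none of the 3 motifs, and its window, at 51.6% G and C, is rich in GA repeats. These matches describe letters only.

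In untreated cells the 9 tested genes spanned a wide range of polymerase density. The VAMP2 value may rest only on bases upstream of its RefSeq starts, so it may not stand for density over its transcripts. Per kilobase of gene span, STMN2 was first with 10.4 ± 1.79 CPM per kb (SD, n = 2 libraries), followed by the granins CHGA with 7.47 ± 1.41, CHGB with 5.32 ± 1.07 and SCG2 with 4.89 ± 1.05 CPM per kb. SYP, an abundant vesicle membrane protein, had 2.52 ± 0.388 CPM per kb. VAMP2 had 1.29 ± 0.435, STX1A 0.968 ± 0.122, GAP43 0.929 ± 0.130 and SYT1 0.396 ± 0.0106 CPM per kb. The library values of CHGB and SCG2 overlapped, as did those of VAMP2, STX1A and GAP43, so the order within each of these sets is not resolved. All other neighbours in this order differed by more than the range of their libraries. The feature that was counted is not given, so the order holds for division by the span only. Per kb of exon STMN2 was again first, with 243.6 CPM per kb. GAP43 with 43.7 and SYT1 with 35.9 CPM per kb then lay above CHGA with 29.4, CHGB with 16.4 and SCG2 with 10.0.

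Among 22341 tested genes with a length, STMN2 stood at percentile 95.8 of this density, CHGA at 93.8, CHGB at 91.2, SCG2 at 90.3 and SYP at 80.4. STX1A and GAP43 lay near the middle, at percentiles 56.6 and 55.5, and SYT1 lay at 35.7. SYT1 is at the same time among the genes with the most reads, with 233.1 ± 6.21 CPM and percentile 97.9 by CPM, since its span is 588016 bp. Dividing by the uncovered length instead, a choice made after the data were seen, moved VAMP2 to 9.95 ± 3.35 CPM per kb, STX1A to 1.37 ± 0.173 and SYT1 to 0.595 ± 0.0158. By that length VAMP2 came next to STMN2 and its 2 libraries, at 7.58 and 12.3 CPM per kb, overlapped those of STMN2, at 11.7 and 9.13 CPM per kb, and those of CHGA, at 6.48 and 8.47 CPM per kb, so its place among these is not resolved.

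**Figure D2:**
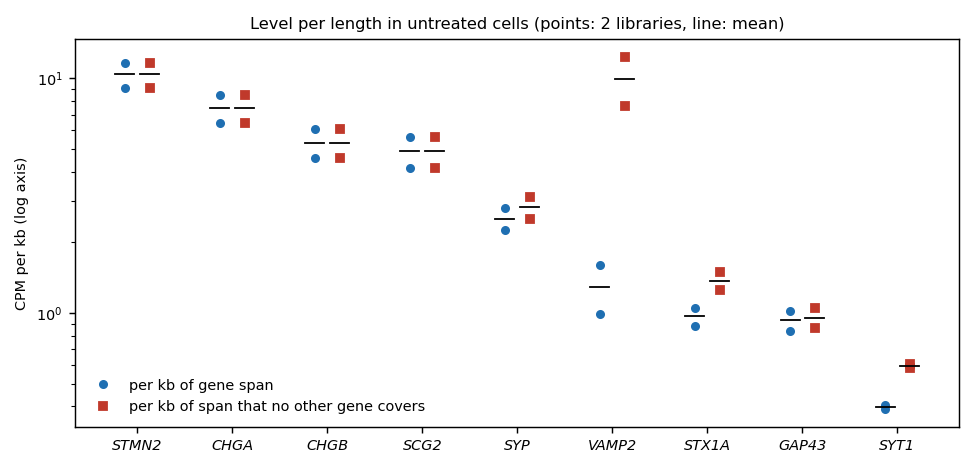
Points are the 2 untreated libraries and lines their means, in TMM-scaled CPM per kb on a log axis; blue circles divide by the gene span and red squares by the part of it that no other gene covers. The order from STMN2 at 10.4 CPM per kb to SYT1 at 0.396 is by span, and VAMP2 shifts most, to 9.95 CPM per kb.

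The first comparison asked whether transcription of these genes differed after 0.5 h of MPP+. No member passed the test, 0 of 9 in edgeR, against 0.0735% of 23133 genes called lower and 0% called higher over the whole table, and DESeq2 also called 0 of 9. At an unadjusted p under 0.05 there were 0 members, against 1.05% of all genes higher and 1.41% lower. The log2 fold changes of the members ran from -0.17 to 0.22 with a median of 0.091, where the median of all genes was 0.00821. Fewer cells transcribing a gene and fewer polymerases on it per cell cannot be told apart in these bulk values.

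After 24 h of MPP+ again 0 of 9 members passed in edgeR, against 0.0692% of all genes called lower and 0% higher, and DESeq2 called 0 of 9. At an unadjusted p under 0.05 there were again 0, against 4.01% of all genes higher and 4.09% lower. The members ran from -0.40 to 0.24 with a median of -0.043, and the median of all genes was 0.0023. Both comparisons use the same untreated libraries. Between 24 h and 0.5 h of MPP+, edgeR called 0 of 9 members and 0 of 23133 genes. At an unadjusted p under 0.05 SYP was higher and SCG2 lower, against 2.8% of all genes higher and 3.62% lower.

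The vesicle gene SYP, coding for synaptophysin, had 28 and 34.8 CPM in untreated cells, 26.9 and 29.2 CPM at 0.5 h, and 33.1 and 39.0 CPM at 24 h. Both 24 h libraries lay above both 0.5 h libraries, while each treated group overlapped the untreated one. Its log2 fold change between 24 h and 0.5 h was 0.36 ± 0.15 (SE, adjusted p = 0.768, edgeR), with a 95% interval of 0.011 to 0.71. SYP-AS1, which overlaps its start on the other strand, had 8.17 and 9.25 CPM at 24 h and 9.16 and 10.2 CPM at 0.5 h, which is -0.16 ± 0.26 on the log2 scale.

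SYT1, the calcium sensor synaptotagmin 1, had 237.5 and 228.7 CPM in untreated cells, 248.3 and 248.1 CPM at 0.5 h, and 256.3 and 262.0 CPM at 24 h. Its groups did not overlap at any step, and the steps were small. The log2 fold change was 0.09 ± 0.10 at 0.5 h and 0.15 ± 0.10 at 24 h against untreated cells (adjusted p = 1 and 0.752, edgeR). The 95% intervals were -0.13 to 0.32 and -0.073 to 0.38. The latter puts any change at 24 h, relative to other genes, between 0.95-fold and 1.3-fold. ENSG00000257894, an antisense gene that covers the end of SYT1, had 10.9 and 10.1 CPM at 24 h and 11.6 and 9.97 CPM in untreated cells.

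Of the SNARE genes, STX1A, coding for syntaxin 1A, had 18.0 and 21.6 CPM in untreated cells, 15.9 and 28.4 CPM at 0.5 h, and 14.9 and 19.0 CPM at 24 h. Its second 0.5 h library was the highest of all 6 and its first 0.5 h library the second lowest. The log2 fold change at 0.5 h was 0.15 ± 0.26, and it was -0.32 without that second library. At 24 h against untreated cells it was -0.24 ± 0.27, with a 95% interval of 0.554-fold to 1.3-fold. That value was -0.064 without the first 24 h library and -0.41 without the second one. BUD23, an rRNA methyltransferase gene whose end overlaps that of STX1A, had 191.3 and 139.0 CPM at 24 h, against 91.95 and 110.4 CPM in untreated cells. That is a log2 fold change of 0.71 ± 0.16, which did not pass over all genes (adjusted p = 0.357, edgeR).

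VAMP2, coding for synaptobrevin 2, rested on few counts: 30 and 60 in untreated cells, 48 and 77 at 0.5 h, and 36 and 44 at 24 h. In CPM these were 4.33 and 7.04 in untreated cells, 4.23 and 8.85 at 0.5 h, and 4.26 and 7.14 at 24 h. The second library was higher in each group and the 3 groups overlapped. The interval of its 24 h change, 0.503-fold to 1.87-fold, was the widest of the 9 members, so changes within it could not be resolved at this depth. The VAMP2 counts may come only from bases upstream of its RefSeq starts, so transcription over those transcripts may not have been measured in any group. The covering gene ENSG00000263620 had 12.8 and 18.0 CPM at 24 h and 12.7 and 14.1 CPM in untreated cells, a log2 fold change of 0.19 ± 0.23.

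The granins are acidic proteins of dense-core granules and sources of bioactive peptides. CHGA, coding for chromogranin A, had 79.1 and 103.4 CPM in untreated cells, 80.4 and 102.9 CPM at 0.5 h, and 89.0 and 88.0 CPM at 24 h. Its 24 h libraries lay between the untreated ones. The log2 fold change was 0.00046 ± 0.15 at 0.5 h and -0.048 ± 0.15 at 24 h, with a 95% interval at 24 h of 0.762-fold to 1.23-fold. CHGB, coding for chromogranin B, had 63.7 and 84.7 CPM in untreated cells, 67.8 and 76.1 CPM at 0.5 h, and 66.1 and 85.4 CPM at 24 h. Its 3 groups overlapped, with a log2 fold change of 0.022 ± 0.16 at 24 h (0.788-fold to 1.31-fold).

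SCG2, coding for secretogranin II, the precursor of secretoneurin, showed the largest fitted difference among the 9 members, between 24 h and 0.5 h. It had 31.3 and 23.1 CPM in untreated cells, 35.8 and 25.4 CPM at 0.5 h, and 23.1 and 17.7 CPM at 24 h. Both 24 h libraries lay below both 0.5 h libraries, and the higher 24 h library met the lower untreated one. The log2 fold change at 24 h was -0.40 ± 0.23 against untreated cells (adjusted p = 0.71) and -0.58 ± 0.22 against 0.5 h (adjusted p = 0.764, edgeR). The second value has a 95% interval of 0.472-fold to 0.945-fold before adjustment. It was -0.31 without the first 0.5 h library. The value against untreated cells was -0.17 without the first untreated library and -0.62 without the second one.

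STMN2 had 645.4 and 505.3 CPM in untreated cells, 632.8 and 589.2 CPM at 0.5 h, and 541.3 and 476.5 CPM at 24 h. It carried the most counts of the members, 2935 to 7185 per library. Both 24 h libraries lay below both 0.5 h libraries and overlapped the untreated ones. Its log2 fold change was -0.18 ± 0.14 at 24 h against untreated cells and -0.26 ± 0.14 at 24 h against 0.5 h (adjusted p = 0.807 and 0.781, edgeR). GAP43 had 82.1 and 100.2 CPM in untreated cells, 104.2 and 108.3 CPM at 0.5 h, and 102.9 and 112.8 CPM at 24 h. Both treated groups lay above the untreated one, by 0.22 ± 0.12 at 0.5 h and 0.24 ± 0.12 at 24 h on the log2 scale (adjusted p = 1 and 0.659, edgeR). Its interval at 24 h was 0.982-fold to 1.42-fold. Without the first untreated library these differences were 0.085 at 0.5 h and 0.10 at 24 h, and without the second one 0.36 and 0.38.

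**Figure D3:**
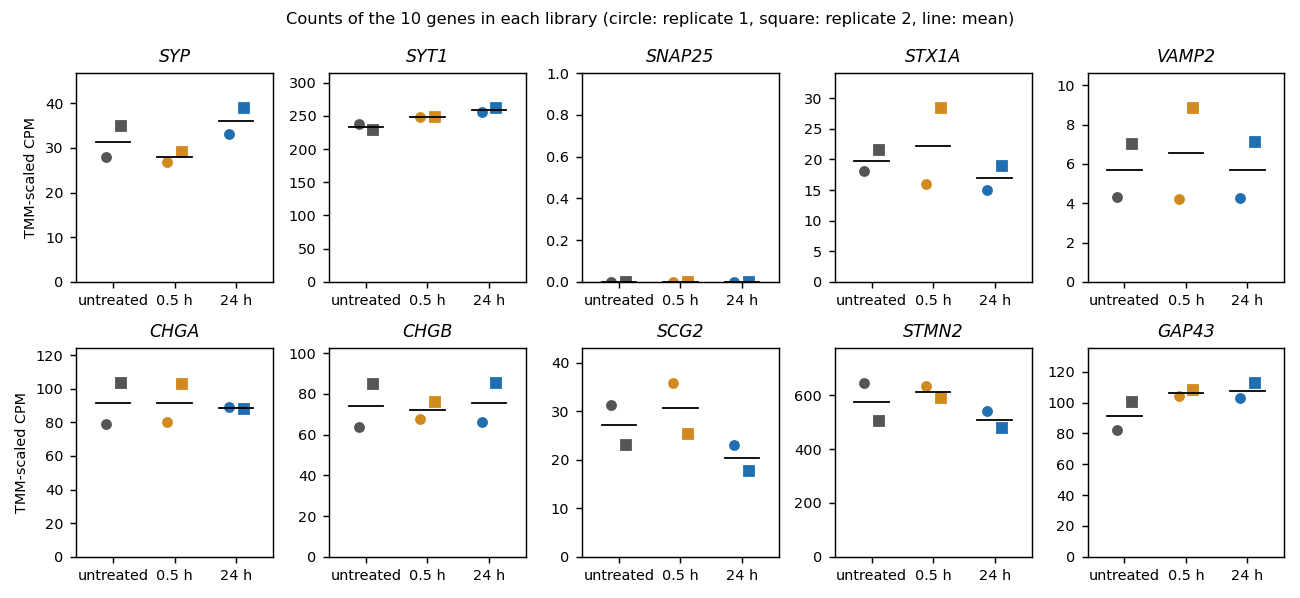
TMM-scaled CPM of each gene in the 6 libraries, by group in order of exposure; circles are replicate 1, squares replicate 2 and lines the mean of 2 libraries. SCG2 and STMN2 are lower at 24 h than at 0.5 h in both libraries, GAP43 is higher in both treated groups than in untreated cells, and SNAP25 is at 0 throughout.

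Counting members whose 2 libraries lay outside the range of the other group, SYT1 and GAP43 were higher at 0.5 h than in untreated cells, 2 of 9 against 12.9% of all genes. None was lower, 0 of 9 against 14.4%. At 24 h against untreated cells, SYT1 and GAP43 were again higher, 2 of 9 against 18.8%, and SCG2 was lower, 1 of 9 against 18.5%. The SCG2 count rests on a near tie at 23.1 CPM, and with RLE scaling it was 0 of 9. Between 24 h and 0.5 h, SYP and SYT1 were higher at 24 h, 2 of 9 against 19.4%, and SCG2 and STMN2 lower, 2 of 9 against 19% of all genes. With 2 libraries a group the exact permutation test cannot go below p = 0.333, so these counts carry no test.

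**Figure D4:**
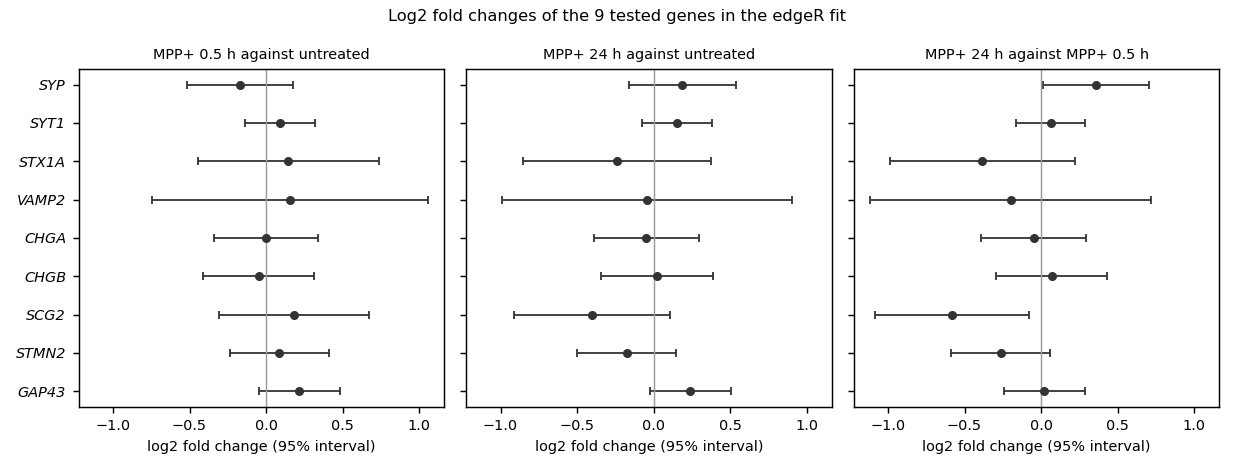
Log2 fold changes of the 9 tested genes with 95% intervals from the edgeR fit, one panel for each comparison. In the panels against untreated cells all intervals include 0, and at 24 h against 0.5 h those of SYP and SCG2 leave it out before adjustment over all genes.

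Several members kept the same order of their libraries by replicate number. SYP, STX1A, VAMP2, CHGB and GAP43 were higher in replicate 2 in 3 of 3 groups. SCG2 and STMN2 were higher in replicate 1 in 3 of 3 groups. CHGA and SYT1 had no such order in all groups. The order was not counted over all genes, so it is not shown to be particular to the members. Across all tested genes, libraries of the same number deviated together, with r = 0.293 to 0.328 between groups. The summed level of the members was 1189 and 1109 CPM in untreated cells, 1216 and 1216 CPM at 0.5 h, and 1131 and 1108 CPM at 24 h.

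The genes whose pattern over the 6 libraries was most like the mean of the members were MRPL36, BICD1-AS1, ZNF337, ATP6AP2 and METTL5, out of 16643 genes with a mean of at least 50 counts. Their likeness to the members' mean centred log2 CPM, as Pearson's r over 6 libraries that share depth and replicate number, was 0.992 to 0.996. MRPL36, which led, had 12.7 and 19.5 CPM in untreated cells, 14.4 and 24.0 CPM at 0.5 h, and 12.1 and 18.2 CPM at 24 h. Like the mean of the members, it was higher in replicate 2 of each group. Pairs of members ranged from r = -0.982 for SYP with STMN2 to 0.935 for SCG2 with STMN2. Their mean is therefore not a pattern that all members share.

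Around these members, 6 lists of related genes were examined, with 123 entries of which 119 were tested, and 0 passed in any comparison in the edgeR fit by group. Of the 4 not tested, SLC18A3, PCSK1 and PRPH have no base outside other genes and were at 0, and the transporter gene SLC32A1 had too few counts.

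Of 23 tested synaptic vesicle genes, 10 lay above and 13 below 0 at 24 h against untreated cells, with a median log2 fold change of -0.095. SYT11, a synaptotagmin that does not bind calcium, had 102.6 and 99.5 CPM at 24 h, against 135.4 and 129.9 CPM in untreated cells (-0.39 ± 0.10, adjusted p = 0.49, edgeR). Its 0.5 h libraries, at 138.1 and 125.5 CPM, lay with the untreated ones. SYN1, coding for the vesicle tether synapsin 1, had 5.92 and 6.49 CPM at 24 h, against 8.66 and 9.62 CPM in untreated cells (-0.56 ± 0.23, adjusted p = 0.602). At 0.5 h 7 lay above and 16 below 0 with a median of -0.043, with SYN3 at 0.22 ± 0.12 and SYNGR3, a vesicle membrane protein, at -0.54 ± 0.31. ATP6V1B2, a subunit of the proton pump, had -0.26 ± 0.10 at 24 h against 0.5 h. In that comparison 7 genes lay above and 16 below 0, with a median of -0.045. Of the 23, 2 higher and 2 lower ones had an unadjusted p under 0.05 in edgeR, against 2.8% of all genes higher and 3.62% lower.

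The 25 genes of SNARE assembly and priming had a median of -0.0088 at 0.5 h and -0.013 at 24 h against untreated cells, and 0.028 at 24 h against 0.5 h. At 0.5 h SNAP23, a broadly expressed relative of SNAP25, had 38.1 and 31.5 CPM, against 24.4 and 30.02 CPM in untreated cells (0.35 ± 0.15, adjusted p = 1). UNC13A, which primes vesicles for fusion, had -0.23 ± 0.12 at 0.5 h. At 24 h TXLNA, which binds syntaxins, had -0.29 ± 0.10 and DOC2B, a calcium-binding protein of the release machinery, had -0.28 ± 0.10 against untreated cells. NAPA, coding for alpha-SNAP, which helps take SNARE complexes apart, had 10.2 and 9.90 CPM at 24 h, against 14.3 and 16.1 CPM at 0.5 h (-0.60 ± 0.18, adjusted p = 0.754).

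Dense-core granule genes numbered 22 tested, 12 above and 10 below 0 at 24 h against untreated cells, with a median of 0.030. PAM, which amidates peptides, had 187.2 and 202.9 CPM at 24 h, against 172.2 and 166.8 CPM in untreated cells (0.20 ± 0.10, adjusted p = 0.662). SLC18A1, the vesicular monoamine transporter of chromaffin cells, had 29.3 and 33.4 CPM at 24 h, against 23.4 and 27.7 CPM in untreated cells (0.29 ± 0.15, adjusted p = 0.671). HID1, needed for granule formation, had -0.31 ± 0.14 and CADPS2, a priming factor, had -0.22 ± 0.18 at 0.5 h. Set against 0.5 h, at 24 h the nicotinic receptor subunit gene CHRNA3 had -0.235 ± 0.12 and PTPRN, a granule membrane protein, had 0.25 ± 0.14.

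Among 24 tested growth-cone and neurite genes, 17 lay below 0 at 0.5 h and 17 at 24 h against the same untreated libraries, with medians of -0.067 and -0.115. Over all genes, 52.1% lay above 0 at 0.5 h and 50.4% at 24 h. STMN3, a stathmin related to STMN2, had 69.2 and 67.2 CPM at 24 h, against 84.6 and 89.6 CPM in untreated cells (-0.35 ± 0.10, adjusted p = 0.518, edgeR). ELAVL3, a neuronal RNA-binding protein, had 59.2 and 61.0 CPM at 24 h, against 77.1 and 73.3 CPM in untreated cells (-0.32 ± 0.11, adjusted p = 0.562). L1CAM, a neurite adhesion molecule, had 10.5 and 12.4 CPM at 0.5 h, against 15.3 and 17.5 CPM in untreated cells (-0.52 ± 0.20, adjusted p = 1). STMN4 had -0.30 ± 0.15 at 24 h against 0.5 h.

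REST is a repressor that silences many neuronal genes outside neurons, together with corepressors. Of its 12 listed genes, 8 lay below 0 at 24 h against untreated cells, with a median of -0.033. KDM1A, the histone demethylase of the CoREST complex, had 26.9 and 19.2 CPM in untreated cells, 29.9 and 23.0 CPM at 0.5 h, and 13.6 and 12.01 CPM at 24 h. Its uncovered length is only 704 bp, so these counts may come from that short stretch and not from the whole gene. The difference at 24 h was -1.04 ± 0.21 against 0.5 h (adjusted p = 0.754) and -0.83 ± 0.22 against untreated cells (adjusted p = 0.498, edgeR). HDAC1 had -0.34 ± 0.15 at 24 h, and at 0.5 h SIN3B had -0.14 ± 0.10 and RCOR2 0.16 ± 0.12, all against untreated cells.

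Calcium channels admit the calcium that triggers release. Of 13 subunit genes, 7 lay above 0 at 24 h against untreated cells, with a median of 0.060. CACNA1G, a low-voltage-activated T-type channel, had 71.6 and 78.5 CPM in untreated cells, 82.9 and 83.0 CPM at 0.5 h, and 99.6 and 102.3 CPM at 24 h. Its log2 fold change was 0.43 ± 0.10 at 24 h against untreated cells (adjusted p = 0.383, edgeR). CACNB4 had 0.37 ± 0.14 at 24 h, and CACNA1B, the N-type channel of nerve endings, had -0.21 ± 0.10 at 0.5 h, both against untreated cells.

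In the authors' deposited tables of differential genes, which list 17 genes for 0.5 h and 24 for 24 h, 0 of the 10 members appear. SNAP25, at 0 in every library, could not have appeared. So few of the 67051 identifiers are listed that this absence says little about the other members.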

How the data were processed

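PRO-seq libraries of SH-SY5Y cells, 2 for each of 3 groups, were compared. The deposited files of the authors hold raw counts per gene and library. Per the submitters' processing notes, cutadapt 1.16.5, Bowtie2 2.4.2, SAMtools 1.13, featureCounts 2.0.1 and hg38 were used. The sources used here do not give strand, feature type or annotation release. The authors' deposited tables of differential genes, used only to look for members, give a base mean (signal), a log2 fold change and a Wald score, per the file headers. A p-value, also adjusted, stands beside them in the deposited tables.

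Of 67051 identifiers, 6357 had no symbol. After filterByExpr 23133 genes were left, and TMM-scaled counts of all 6 libraries were fitted by group with the quasi-likelihood test of edgeR 4.0.16 in R 4.3.3. Two-sided p-values were adjusted over these genes by the Benjamini-Hochberg method (threshold 0.05), and 95% intervals were not adjusted. DESeq2 1.42.0 and other settings were alternatives. The fit was tested on simulated data.

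Libraries of a group differed by more than counting error (chi-square over degrees of freedom 4.13 to 8.97). The genes named beside the members were the 2 with the smallest p in each list and comparison, the 5 most like the members' mean, and genes that overlap a member. Members and lists were chosen with earlier results of these data known. A cell type marker is not reported here.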

Additional observations from a re-analysis of the deposited data

How the results depend on the processing

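None of the 9 tested members was called in any comparison under median-ratio (RLE) size factors, DESeq2, no filter on low counts, only the compared groups in the fit, or without any 1 library. Where a left-out library leaves a group with 1, the remaining library is assumed to vary like the other groups, and the lack of calls there says nothing about stability. The exception was the replicate block, the replicate number of the labels as a term in the fit. With it, at 24 h against 0.5 h, SCG2 had -0.59 (adjusted p = 0.0237) and STMN2 -0.27 (adjusted p = 0.0355), both past the threshold. That was 2 of 9 members, beside 116 genes called higher and 296 lower out of 23133. The block also moved VAMP2 to 0.017 at 24 h against untreated cells. Libraries of the same number deviated together, with r = 0.328 for 0.5 h and untreated, 0.293 for 24 h and untreated and 0.312 for 24 h and 0.5 h across genes. With 2 numbers and no word in the labels on what a number marks, this is a hint from the data and not a pairing by design. The cause was not tested.

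Over all 23133 tested genes the block called 15 higher and 42 lower at 0.5 h, 301 and 384 at 24 h, and 116 and 296 at 24 h against 0.5 h. Without the filter these counts were 20 and 46, 130 and 115, and 29 and 44. DESeq2 called 13 higher at 24 h. Leaving out 1 library gave 9 to 19 lower genes at 0.5 h, fewest without the first 0.5 h library, and 0 to 1 higher and 8 to 16 lower at 24 h, fewest without the first untreated library. Among the related lists the block called 1 synaptic vesicle gene, SYT11, 1 SNARE gene, TXLNA, 3 growth-cone genes, STMN1, STMN3 and MARCKS, 2 REST list genes, KDM1A and HDAC1, and 1 channel gene, CACNA1G, at 24 h against untreated cells. Between 24 h and 0.5 h it called 1 each of the vesicle, growth-cone and REST lists, SYT11, MARCKS and KDM1A. Without the filter 1 gene of the REST list was called in each of these comparisons.

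Signs near 0 depended on single libraries. Leaving out 1 library, at 0.5 h the log2 fold change ranged from -0.32 to 0.52 for STX1A, -0.45 to 0.62 for VAMP2, -0.19 to 0.20 for CHGA, -0.24 to 0.17 for CHGB, -0.093 to 0.41 for SCG2 and -0.087 to 0.27 for STMN2. At 24 h against untreated cells it ranged from -0.43 to 0.35 for VAMP2, -0.23 to 0.15 for CHGA, -0.17 to 0.23 for CHGB and -0.35 to 0.0087 for STMN2. Between 24 h and 0.5 h it ranged from -0.75 to 0.079 for STX1A, -0.66 to 0.40 for VAMP2, -0.22 to 0.14 for CHGA, -0.12 to 0.25 for CHGB and -0.043 to 0.086 for GAP43.

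Per kb of exon, untreated levels were 6.02 CPM for SYP, 35.9 for SYT1, 5.37 for STX1A, 1.74 for VAMP2, 29.4 for CHGA, 16.4 for CHGB, 10.0 for SCG2, 243.6 for STMN2 and 43.7 for GAP43. This order differs from that per kb of span, with GAP43 and SYT1 above the granins. Per kb of uncovered span they were 9.95 for VAMP2, 1.37 for STX1A and 0.595 for SYT1. With RLE scaling, an alternative chosen after seeing the data, SCG2 at 24 h overlapped the untreated libraries, leaving 0 members lower.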
